A study of Mus musculus with 4 samples.

Results

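The genes described here are 9 mitogen-activated protein (MAP) kinase cascade genes that lie upstream of Il10 in macrophages: Map3k8, Map2k1, Map2k3, Map2k6, Mapk3, Mapk8, Mapk14, Mapkapk2 and Mapkapk3. They were chosen by name, and every probe annotated to 1 of the 9 symbols was taken, which gave 13 of the 39429 probes on the array and 9 of its 20886 named genes. All 13 passed the filter on dim probes, and 8 of them exceeded background clearly in each channel on all 4 arrays. The RNA came from macrophages grown from bone marrow of male mice aged 6 weeks, cultured for 7 days in medium with 25 ng/ml of GM-CSF, a myeloid growth factor. There were 4 groups of 2 samples: Cdk5r1 knockout cells given Escherichia coli lipopolysaccharide (LPS) at 100 ng/ml for 6 h, wildtype cells given the same LPS, basal knockout cells and basal wildtype cells. The strain B6.129S4-Cdk5r1tm1Lht/J, which carries the targeted Cdk5r1 allele, is named for both genotypes. Cdk5r1 encodes the p35 activator of the kinase CDK5.

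Each of the 4 two-colour Agilent arrays held a knockout sample in the Cy5 channel and a wildtype sample in the Cy3 channel. The dyes were never swapped, so a dye effect of a probe and an effect of genotype cannot be told apart in a knockout to wildtype ratio, while a constant dye effect cancels between LPS and basal cells of 1 genotype. All arrays shared 1 slide and 1 scan. The labels call the arrays biological replicates but name no animals, so p-values measure the spread between these samples, which may be technical. The median spot intensity before background correction was 116 to 145.5 in the knockout channel and 76 to 97.5 in the wildtype channel. Between 62.1% and 65.0% of spots in the knockout channel were well above background, and 68.3% to 71.0% in the wildtype channel. Levels are normalised log2 intensities, differences are on the log2 scale with the standard error (SE) of the limma fit, and a probe was called where its p-value, adjusted by Benjamini-Hochberg over 28632 probes, was under 0.05. Levels of different probes cannot be set against each other.

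A MAP kinase cascade passes a signal by phosphorylation through 3 tiers, a MAP3 kinase, a MAP2 kinase and a MAP kinase, and the MAP kinases in turn activate further kinases. In macrophages, LPS sensed by TLR4 activates the MAP3 kinase TPL2, the product of Map3k8, which is held by the NF-kappaB precursor p105 until that is degraded, and TPL2 activates the MAP2 kinase MEK1 and through it the ERK kinases. A parallel branch runs through the MAP2 kinases MKK3 and MKK6 to the kinase p38 alpha and its substrates MK2 and MK3, and another ends in the kinase JNK1. ERK and p38 signalling are both known to promote Il10 expression in macrophages. The arrays measured the mRNA of these genes and not the phosphorylation by which the kinases act.

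The targeted gene was read by 2 probes. With probe A_55_P2156583, Cdk5r1 had levels of 8.81 and 9.64 in LPS-treated knockout cells, against 11.36 and 11.93 in LPS-treated wildtype cells. In basal cells the same probe gave 9.21 and 9.19 in the knockout, against 9.58 and 9.78 in the wildtype. Both Cdk5r1 probes were lower in the knockout after LPS, by -2.42 ± 0.094 and -2.01 ± 0.068, and in the basal state, by -0.48 ± 0.094 and -0.49 ± 0.068 (limma adjusted p = 4.2e-05, 2.8e-05, 0.040 and 0.010). The direction fitted the genotype labels on all 4 arrays, and the basal calls did not pass with either basal array left out (adjusted p = 0.052 to 0.24). The sources used here do not say where the probes lie relative to the deleted sequence. Il10, the cytokine gene downstream, was not well above background in basal cells and reached 9.74 and 10.72 in LPS-treated knockout cells, against 7.84 and 8.81 in LPS-treated wildtype cells. Its knockout to wildtype difference under LPS was 1.91 ± 0.067 (limma adjusted p = 3.2e-05).

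RefSeq promoter sequences (GRCm38.p6, 250 bases before to 50 after the start) were used for 7 of the 9 members, with 12 promoters among them. Map3k8 and Mapk3 are not covered, so the motif results below do not apply to them. Those of Map2k1 and Mapkapk2, whose mRNAs rose with LPS, and the first promoter of Mapk14, whose mRNA fell, are shown for comparison, each 5′ to 3′ on the strand of the gene. Capitals mark TGACG, the core of the cAMP response element, on either strand (CGTCA on the other).

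Map2k1, chr9:64253556-64253855, minus strand: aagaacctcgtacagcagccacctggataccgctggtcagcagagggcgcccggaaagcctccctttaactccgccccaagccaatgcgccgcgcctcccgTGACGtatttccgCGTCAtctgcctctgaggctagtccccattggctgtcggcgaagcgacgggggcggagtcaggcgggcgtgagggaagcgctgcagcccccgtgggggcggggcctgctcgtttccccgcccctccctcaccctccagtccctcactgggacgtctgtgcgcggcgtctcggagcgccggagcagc

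Mapkapk2, chr1:131097794-131098093, minus strand: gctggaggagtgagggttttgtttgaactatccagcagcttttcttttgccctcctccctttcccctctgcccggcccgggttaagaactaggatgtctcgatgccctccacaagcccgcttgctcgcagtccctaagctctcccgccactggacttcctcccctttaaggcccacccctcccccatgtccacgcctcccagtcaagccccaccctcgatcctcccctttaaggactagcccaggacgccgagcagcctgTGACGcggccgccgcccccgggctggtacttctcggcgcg

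Mapk14, chr17:28691092-28691391, plus strand: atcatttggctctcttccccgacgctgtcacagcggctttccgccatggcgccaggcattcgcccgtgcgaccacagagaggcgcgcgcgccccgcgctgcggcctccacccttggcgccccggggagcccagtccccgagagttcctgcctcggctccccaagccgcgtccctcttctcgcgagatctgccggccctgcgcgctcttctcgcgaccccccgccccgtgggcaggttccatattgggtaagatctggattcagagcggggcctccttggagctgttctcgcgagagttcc

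Map2k1 carried TGACG with its first base at -149 from the start, and its reverse complement at -136. Mapkapk2 carried it at 11 bases past the start, and the Mapk14 promoter shown held none. Of all 32851 promoters in the RefSeq table, 20.8% held TGACG on either strand, and it was also present in the first promoters of Mapk8 (at -36 and -14) and Mapkapk3 (at -57). The full cAMP response element TGACGTCA, which contains TGACG on both strands and is found in 1.79% of all promoters, was in none of the 12. The loose AP-1-like pattern TGANTCA, where N is any base, was found in 7.81% of all promoters on either strand. Among the 12 it was present in the first promoter of Map2k6 alone, as TGATTCA at -232. The kappaB consensus, found in 8.46% of all promoters, was in none of the 12. The 3 promoters shown were richer in G and C than the median of 52.7% over all promoters, at 69% for Map2k1, 63.3% for Mapkapk2 and 68.7% for Mapk14. In the RefSeq order of protein-coding genes, Mapkapk2 lies next to Il10 on chromosome 1 and Mapk14 next to Mapk13 on chromosome 17. These matches describe letters in a window and say nothing about binding.

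With LPS, some member mRNAs rose and others fell in both genotypes. Map3k8, Map2k1 and Mapkapk2 rose, while Mapk14, Map2k6 and Map2k3 fell, each in knockout and in wildtype cells. In knockout cells 3 of the 13 member probes were called higher and 6 lower, or 23.1% and 46.2%. Of all probes tested there, 19.3% were called higher and 22.9% lower. In wildtype cells 3 member probes were called higher and 4 lower, or 23.1% and 30.8%, against 18.5% and 23.4% of all probes tested. The median difference over the member probes was -0.22 in knockout cells and -0.35 in wildtype cells, and over all probes -0.02 and -0.01. In bulk samples such as these, fewer cells of a type and less RNA per cell cannot be told apart.

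**Figure D1:**
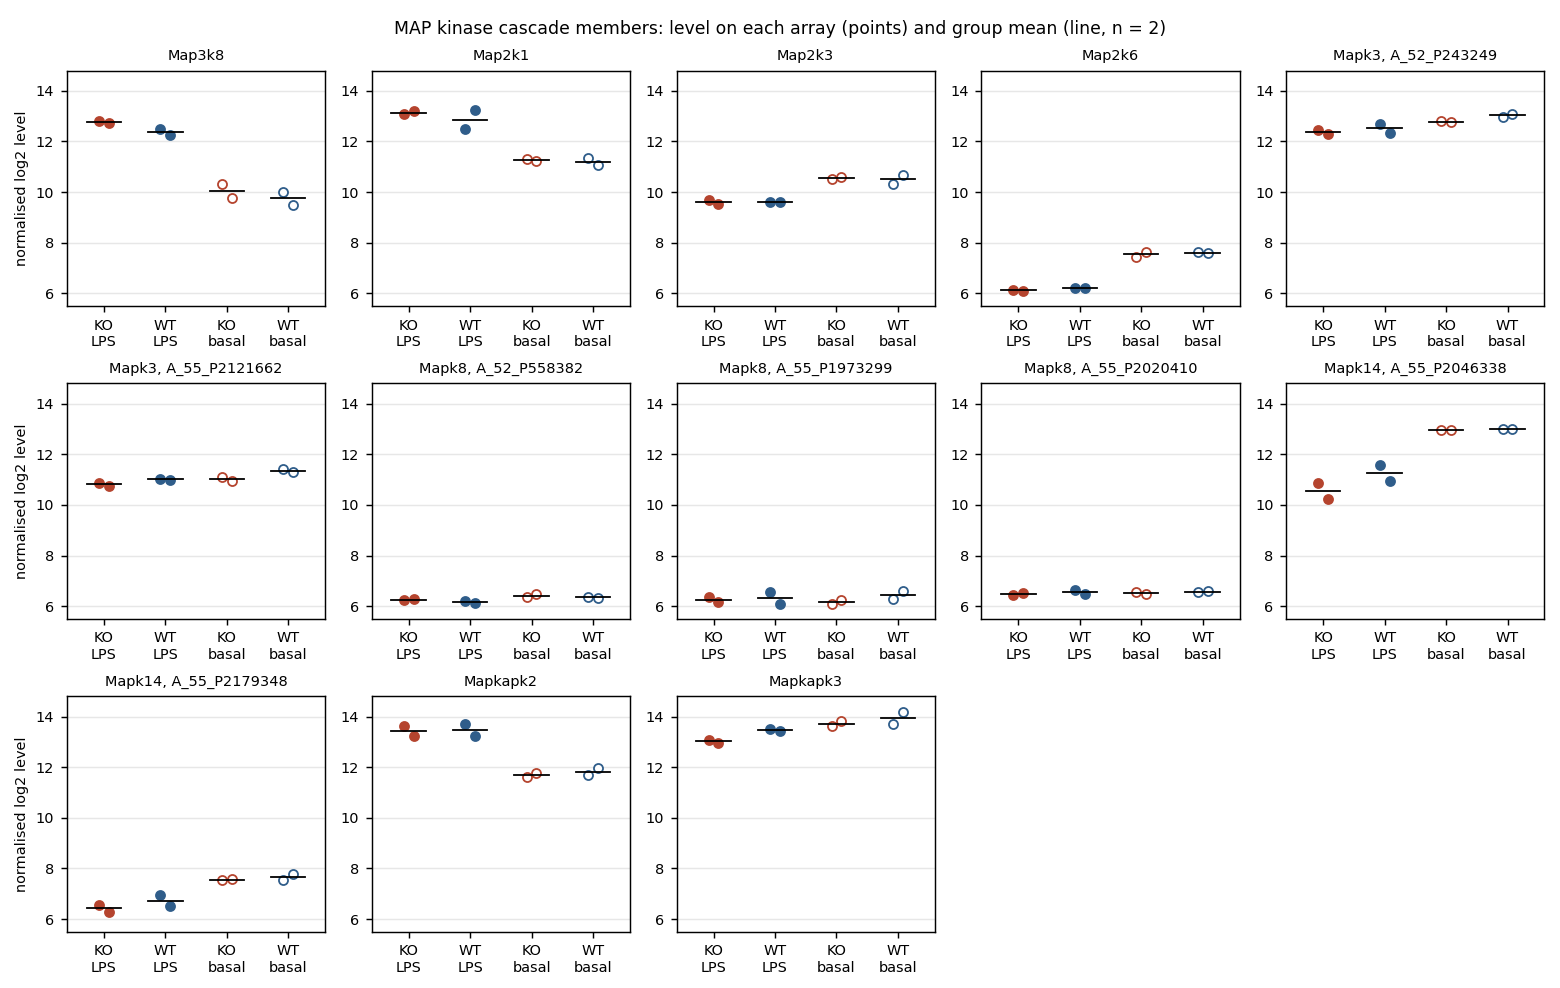
Normalised log2 level (vertical axis) of each of the 13 member probes in LPS-treated knockout (KO), LPS-treated wildtype (WT), basal knockout and basal wildtype cells; points are arrays, lines the mean of 2. Filled points of both genotypes stand above the open basal points for Map3k8, Map2k1 and Mapkapk2 and below them for Map2k3, Map2k6 and both Mapk14 probes.

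At the top of the cascade, the MAP3 kinase gene Map3k8 had levels of 12.82 and 12.75 in LPS-treated knockout cells, against 10.31 and 9.76 in basal knockout cells. In wildtype cells it had 12.49 and 12.25 after LPS, against 10.01 and 9.51 in the basal state. Every LPS sample lay more than 1 log2 unit above every basal sample. Map3k8 rose by 2.75 ± 0.21 in the knockout and 2.61 ± 0.20 in the wildtype, which is 6.73-fold and 6.11-fold (limma adjusted p = 0.0016 and 0.0014). This was the member probe with the greatest LPS response, taken as the mean of both genotypes. The probes with a symbol whose levels over the 8 array channels were most like it were those of Adap2, Nampt and Sowahc, with mean absolute differences of 0.08, 0.11 and 0.12 after centring.

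In the tier below, the MAP2 kinase genes moved in opposite directions. Map2k1, which encodes the ERK activator MEK1, had levels of 13.07 and 13.21 in LPS-treated knockout cells, against 11.31 and 11.24 in basal knockout cells. In wildtype cells its levels were 12.49 and 13.25 after LPS, against 11.34 and 11.06 in the basal state. All 4 LPS values stood above all 4 basal values, and the 2 wildtype LPS arrays lay further apart than any other Map2k1 pair. The rise was 1.87 ± 0.11 in the knockout and 1.67 ± 0.28 in the wildtype (limma adjusted p = 9.9e-04 and 0.0096). The wildtype call did not pass without basal replicate 2, with a difference of 1.53 and adjusted p = 0.064.

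The p38 activators fell. Map2k3, which encodes MKK3, had levels of 9.69 and 9.53 in LPS-treated knockout cells, against 10.52 and 10.62 in basal knockout cells. The wildtype values were 9.62 and 9.62 after LPS, against 10.33 and 10.69 in the basal state. No LPS sample overlapped a basal sample, and Map2k3 fell by 0.96 in the knockout (SE 0.12) and by 0.89 in the wildtype (SE 0.15; limma adjusted p = 0.0048 and 0.0095).

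Map2k6, which encodes the second p38 activator MKK6, was not well above background on any LPS array in either channel. Its measured levels were 6.13 and 6.11 in LPS-treated knockout cells, against 7.45 and 7.64 in basal knockout cells. In wildtype cells they were 6.21 and 6.21 after LPS, against 7.63 and 7.58 in the basal state. Each difference therefore has only a bound: Map2k6 was at least 2.65-fold lower with LPS in the knockout and at least 2.64-fold lower in the wildtype (limma adjusted p = 0.0019 and 9.5e-04). The bound sets the basal mean against the higher, on each LPS array, of the probe's own level and the lowest level of any probe that was well above background. In the wildtype the probe's own level was the higher on each LPS array, so there the bound equals the measured difference.

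Among the MAP kinases themselves, Mapk14, which encodes p38 alpha, fell most. Its brighter probe A_55_P2046338 gave levels of 10.86 and 10.24 in LPS-treated knockout cells, against 12.95 and 12.96 in basal knockout cells. In wildtype cells that probe gave 11.59 and 10.93 after LPS, against 13.02 and 13.01 in the basal state. The 4 basal values lay close together, and all 4 LPS values were lower. Mapk14 fell by 2.41 in the knockout (SE 0.22) and by 1.76 in the wildtype (SE 0.23), which is 5.30-fold and 3.38-fold (limma adjusted p = 0.0026 and 0.0051).

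The dimmer Mapk14 probe A_55_P2179348 moved the same way. It read 6.57 and 6.27 in LPS-treated knockout cells, with 1 of the 2 arrays well above background, against 7.55 and 7.58 in basal knockout cells. The wildtype levels were 6.94 and 6.51 after LPS, against 7.54 and 7.77 in the basal state. The differences were -1.14 ± 0.14 in the knockout and -0.93 ± 0.18 in the wildtype (limma adjusted p = 0.0049 and 0.016). The wildtype call was lost without either basal array, at -1.04 and -0.81 (adjusted p = 0.056 and 0.095), and with Agilent's processed signals, at -1.61 (adjusted p = 0.052).

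Mapk3, which encodes ERK1, was read by 2 bright probes whose differences were small and negative in both genotypes. Probe A_52_P243249 gave 12.47 and 12.30 in LPS-treated knockout cells, against 12.81 and 12.76 in basal knockout cells. In wildtype cells the same probe gave 12.71 and 12.33 after LPS, against 12.97 and 13.10 in the basal state. The LPS values lay below the basal values within each genotype, and only the knockout difference passed, at -0.40 ± 0.11, with -0.52 ± 0.16 in the wildtype (limma adjusted p = 0.044 and 0.055). That knockout call was lost under 8 of 12 alternative settings and stood at -0.09 when each channel was scaled to its 75th percentile.

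The other Mapk3 probe, A_55_P2121662, passed in neither genotype. It read 10.87 and 10.75 in LPS-treated knockout cells, against 11.10 and 10.97 in basal knockout cells. In wildtype cells it read 11.03 and 10.99 after LPS, against 11.43 and 11.28 in the basal state. The differences were -0.22 ± 0.11 and -0.35 ± 0.10, with limma adjusted p-values of 0.19 in the knockout and just above the threshold in the wildtype.

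Mapk8, which encodes JNK1, was dim on all 3 of its probes, with levels between 6.07 and 6.66 across all 8 channels, next to the lowest levels well above background of 5.76 to 6.15. Its LPS differences lay between -0.16 and 0.11 in the knockout and between -0.18 and -0.01 in the wildtype, and none passed. Probe A_55_P1973299 was not well above background in any knockout sample. Probe A_55_P2020410 was the most often above background, on every array but 1 knockout LPS array, and its 95% interval for the LPS difference ran from -0.30 to 0.24 in the knockout and from -0.30 to 0.28 in the wildtype.

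At the bottom of the p38 branch, Mapkapk2 rose in both genotypes, while the lower Mapkapk3 levels after LPS were called in the knockout only. Mapkapk2 encodes MK2, which phosphorylates the mRNA-binding protein tristetraprolin and so prolongs the life of cytokine mRNAs. It had levels of 13.63 and 13.25 in LPS-treated knockout cells, against 11.60 and 11.77 in basal knockout cells. In wildtype cells it had 13.72 and 13.24 after LPS, against 11.69 and 11.97 in the basal state. All LPS samples lay above all basal samples, and Mapkapk2 rose by 1.76 ± 0.17 in the knockout and 1.65 ± 0.20 in the wildtype, or 3.38-fold and 3.14-fold (limma adjusted p = 0.0027 and 0.0041).

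Mapkapk3, which encodes the related kinase MK3, had levels of 13.09 and 12.95 in LPS-treated knockout cells, against 13.61 and 13.83 in basal knockout cells. In wildtype cells it had 13.50 and 13.43 after LPS, against 13.70 and 14.17 in the basal state. The values of the groups did not overlap within either genotype. Mapkapk3 fell by 0.70 in the knockout (SE 0.13, limma adjusted p = 0.015). The wildtype difference of -0.47 ± 0.18 did not pass (adjusted p = 0.10) and stood at 0.003 with 75th percentile scaling. A direct test of whether these responses differed gave -0.23 ± 0.12 and did not pass either (limma adjusted p = 0.60). The knockout call was lost without either basal array, at -0.81 and -0.59 (adjusted p = 0.052 and 0.096), and at -0.25 with 75th percentile scaling (adjusted p = 0.21).

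**Figure D2:**
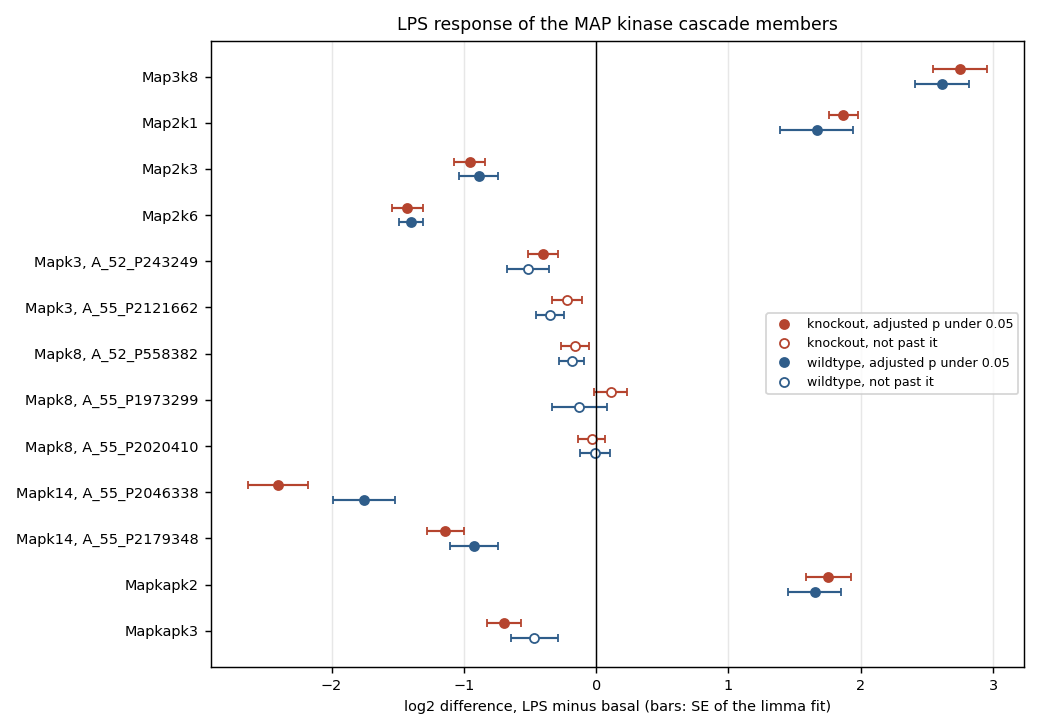
LPS minus basal log2 difference (horizontal axis) of each member probe in knockout (red, upper of each pair) and wildtype (blue, lower) cells, with SE bars of the limma fit; filled points passed an adjusted p of 0.05. Map3k8, Map2k1 and Mapkapk2 lie at 1.65 or above, and the brighter Mapk14 probe is the lowest in both genotypes at -2.41 and -1.76.

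Scaling each channel to its 75th percentile moved the median LPS difference of all probes to 0.36 in knockout and 0.34 in wildtype cells. The members called in both genotypes kept their direction and their call under that scaling. The small differences of Mapk8 turned positive there: probe A_52_P558382 stood at 0.36 in the knockout, and probe A_55_P2020410 at 0.44 in the knockout and 0.42 in the wildtype. The third probe, A_55_P1973299, stood at 0.64 in the knockout, above the shift of all probes. These 4 values passed the threshold under that scaling. With Agilent's processed signals, probe A_52_P558382 was instead called lower in the knockout, at -1.37, so its direction depended on the processing.

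Knockout and wildtype cells differed less than LPS and basal cells. Under LPS, 1 member probe was called higher in the knockout, that of Map3k8, and 2 lower, the brighter Mapk14 probe and Mapkapk3. The shares over all probes tested were 6.65% higher and 4.83% lower, and the median difference was -0.07 over the members and -0.003 over all probes.

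Mapk14 had the largest gap of the members. The array ratios of its brighter probe under LPS were -0.73 and -0.69, and in the basal state -0.07 and -0.05. The knockout levels of 10.86 and 10.24 lay below the wildtype levels of 11.59 and 10.93 after LPS, with a mean difference of -0.71 ± 0.07, or 1.63-fold lower (limma adjusted p = 0.0017). The call held in all 12 alternative settings, with differences from -0.77 to -0.55. Several of these settings reuse the same levels and cannot change the difference. The dimmer Mapk14 probe gave -0.31 ± 0.08 and did not pass (adjusted p = 0.057). In basal cells the difference of the brighter probe was -0.06, with a 95% interval from -0.22 to 0.10, and it stood at 0.20 with median centring, where it did not pass either.

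Whether the LPS response of a member differed between the genotypes was tested directly as the difference of the knockout effect between LPS and basal arrays. For the brighter Mapk14 probe this was -0.65 ± 0.10, with an unadjusted p of 2.9e-04 and a limma adjusted p of 0.060, so it did not pass. It passed with median centring in place of loess (-0.75, adjusted p = 0.028), with 75th percentile scaling (-0.73, adjusted p = 0.027) and with no filter on dim probes (-0.65, adjusted p = 0.042). None of the 13 member probes was called in this test and 1 had an unadjusted p under 0.05, where 0.402% of all probes tested were called. The estimates of the other 12 member probes lay between -0.23 and 0.24.

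Map3k8 was higher in the knockout on all 4 arrays, by 0.33 and 0.50 under LPS and by 0.30 and 0.25 in the basal state. Its mean difference under LPS was 0.41 ± 0.08, or 1.33-fold (limma adjusted p = 0.018), and in basal cells 0.27 ± 0.08 (adjusted p = 0.11). The LPS call was lost with Agilent's processed signals (0.45, adjusted p = 0.071), without LPS replicate 1 (0.50, adjusted p = 0.083) and without LPS replicate 2 (0.33, adjusted p = 0.16). With median centring the Map3k8 differences were greater, at 0.64 under LPS and 0.43 in basal cells, and the basal difference passed (adjusted p = 0.0013 and 0.012). It also passed with 75th percentile scaling, at 0.29 (adjusted p = 0.047).

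Mapkapk3 was lower in the knockout on all 4 arrays. Under LPS its ratios were -0.48 and -0.41, with a mean of -0.45 ± 0.08 (limma adjusted p = 0.021), and in basal cells they were -0.34 and -0.09, with a mean of -0.21 ± 0.08 (adjusted p = 0.24). The LPS call was lost with median centring (-0.17, adjusted p = 0.28), 75th percentile scaling (-0.29, adjusted p = 0.054), processed signals (-0.43, adjusted p = 0.087) and either LPS array left out (-0.48 and -0.41, adjusted p = 0.15 and 0.17).

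The other members did not pass under LPS. Map2k1 had ratios of 0.58 and -0.03 on the LPS arrays, so the arrays did not share a direction, and its mean of 0.27 ± 0.14 had an adjusted p of 0.26. Mapkapk2 had a difference of -0.04 with a 95% interval from -0.21 to 0.13, and Map2k3 one of -0.01 with an interval from -0.22 to 0.20. The Mapk3 probes gave -0.13 and -0.20, and the Mapk8 probes lay between -0.07 and 0.09. Median centring moved the median ratio of all probes under LPS to 0.07. With it, Map2k1 stood at 0.53 and passed (adjusted p = 0.046), while Mapkapk2 at 0.26, Map2k3 at 0.12 and the brighter Mapk3 probe at 0.09 turned positive and did not pass. After LPS, Map2k6 stayed close to background in both genotypes, so no fold is given.

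**Figure D3:**
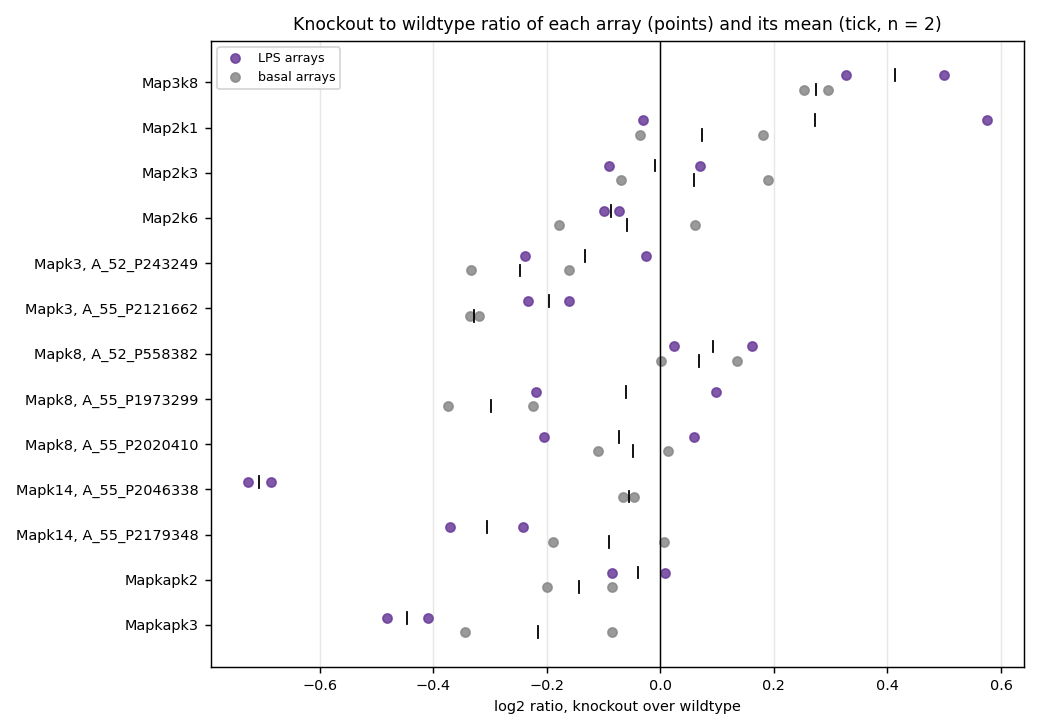
Log2 ratio of knockout over wildtype (horizontal axis) on each LPS array (purple, upper of each pair) and basal array (grey, lower) for the 13 member probes, with ticks at the mean of 2. The brighter Mapk14 probe has LPS ratios of -0.73 and -0.69 beside basal ratios of -0.07 and -0.05, and all 4 Map3k8 ratios are above 0.

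In basal cells no member probe was called higher in the knockout and 1 was called lower, where 3.09% and 1.42% of all probes tested were called. That probe was A_55_P2121662 of Mapk3, with levels of 11.10 and 10.97 in knockout cells, against 11.43 and 11.28 in wildtype cells. Its difference of -0.33 ± 0.07 passed narrowly (limma adjusted p = 0.049), and it failed in 10 of the 11 alternatives that gave a value. The other Mapk3 probe gave -0.25 ± 0.09 in basal cells and did not pass (adjusted p = 0.19).

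The summed levels of some marker lists of other cell types differed between the genotypes. A sum weighs bright probes most, and whether the single markers of a list agree is not shown here. The summed level of 7 granulocyte markers, all 7 well above background in every group, was 96202 and 91949.5 in LPS-treated knockout cells, against 269570 and 294458 in LPS-treated wildtype cells. In basal cells that sum was 48708 and 78971 in the knockout, against 106340 and 169361 in the wildtype. The sum of 7 dendritic cell markers, all above background in every group, was 728929 and 744217 in LPS-treated knockout cells, against 575046 and 547349 in LPS-treated wildtype cells. In basal cells the dendritic cell sum was 598274 and 591142 in the knockout, against 450101 and 523115 in the wildtype. The sum of 3 eosinophil markers was 6513 and 6588 in LPS-treated knockout cells, against 13953 and 19288 in LPS-treated wildtype cells. In basal cells the eosinophil sum was 5281 and 7952 in the knockout, against 7968 and 9796 in the wildtype. All 7 macrophage markers with a probe were above background in every group, and their sum was 121173 and 92271.5 in LPS-treated knockout cells, against 123760 and 113083 in LPS-treated wildtype cells. Basal cells had macrophage sums of 236592 and 193962 in the knockout, against 197752 and 195726 in the wildtype. The sum of 4 mast cell or basophil markers was 2327 and 2495.5 in LPS-treated knockout cells, against 1402 and 1632 in LPS-treated wildtype cells, and 3985 and 2344 in basal knockout cells, against 1880.0 and 1740 in basal wildtype cells. Of these 4, 3 were well above background in every group and Ms4a2 in none. After LPS the B cell sums were 517 and 427 in the knockout, against 459 and 404 in the wildtype. The T or NK cell sums were 1588 and 1669, against 1745 and 1609, and the stromal cell sums 787 and 862, against 968 and 1050. Pax5, Ncr1 and Col3a1 were not well above background in LPS-treated knockout cells. In basal cells the sums of these lists overlapped between the genotypes. The part of these cell types in the results for the MAP kinase genes was not tested.

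The wider pathway comprised 55 further genes, of which 53 had a probe and 52 a probe that passed the filter on dim signals, with 78 probes in all. After LPS, 16 of the 78 probes were called higher and 15 lower in knockout cells, and 16 higher and 19 lower in wildtype cells. These are 20.5% and 19.2% of the probes in the knockout, beside 19.3% and 22.9% of all probes tested, and 20.5% and 24.4% in the wildtype, beside 18.5% and 23.4%. Their median difference was 0.01 in the knockout and -0.02 in the wildtype, close to that of all probes.

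Among scaffolds and partners, Nfkb1, which encodes the p105 protein that holds TPL2, rose on both its probes, by 2.46 ± 0.16 and 2.41 ± 0.11 in the knockout and by 2.52 ± 0.12 and 2.55 ± 0.19 in the wildtype (limma adjusted p = 0.0012, 7.0e-04, 5.2e-04 and 0.0013). Tab2, an adaptor of the MAP3 kinase TAK1, was named by the rule in the knockout alone, where it rose by 1.22 ± 0.14 (adjusted p = 0.0039). Its wildtype value is not given here. No probe of this group was called in the direct test of whether the knockout effect differed between LPS and basal arrays. In all, 4 of 19 probes of this group were called higher and 2 lower in the knockout, or 21.1% and 10.5%. In the wildtype 5 were called higher and 4 lower, or 26.3% and 21.1%. The shares over all probes tested were 19.3% and 22.9% in the knockout, and 18.5% and 23.4% in the wildtype.

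The MAP3 kinases other than Map3k8 moved in both directions. Of their 26 probes, 7 were called higher and 8 lower in the knockout, or 26.9% and 30.8%. In the wildtype 7 were called higher and 11 lower, or 26.9% and 42.3%. Of all probes tested, 19.3% were called higher and 22.9% lower in the knockout, and 18.5% and 23.4% in the wildtype. Map3k4, an activator of the p38 and JNK branches, fell by 3.17 in the knockout (SE 0.38) and by 2.71 in the wildtype (SE 0.35; limma adjusted p = 0.0045 and 0.0048). Map3k6 fell by 2.51 and 2.07 in these genotypes (SE 0.12 and 0.14; adjusted p = 7.5e-04 and 0.0011).

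The other MAP2 kinases had 7 probes, of which 1, of Map2k5, was called lower in each genotype (14.3%) and none higher. In the ERK branch, Mapk6 (ERK3) accounted for all 3 of the 10 probes called higher in each genotype, and by the naming rule its wildtype rise was 1.1 ± 0.21 (limma adjusted p = 0.014). Mapk7 was the 1 called lower there, so 30% of the ERK branch probes were called higher and 10% lower in each genotype. Over all probes tested these shares were 19.3% and 22.9% in the knockout, and 18.5% and 23.4% in the wildtype. None of the 3 JNK branch probes and none of the 3 probes of the other p38 kinases was called with LPS, so of the 4 p38 kinase genes Mapk14 alone was called.

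Of 10 probes for kinases that act below the MAP kinases, 2 were called higher and 3 lower in the knockout, or 20% and 30%. In the wildtype 1 was called higher and 2 lower, or 10% and 20%. All probes tested had shares of 19.3% and 22.9% in the knockout, and 18.5% and 23.4% in the wildtype. Rps6ka1, which encodes the ERK substrate RSK1, fell by 3.0 in the knockout (SE 0.11) and by 2.62 in the wildtype (SE 0.11; limma adjusted p = 5.0e-04 and 4.2e-04). Mknk2, a MAP kinase substrate that phosphorylates the translation factor eIF4E, fell by 2.09 and 1.94 (SE 0.30 and 0.15; adjusted p = 0.0077 and 0.0014). The related Rps6ka2 rose, by 1.30 ± 0.35 in the knockout and 1.08 ± 0.31 in the wildtype (adjusted p = 0.041 and 0.047).

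**Figure D4:**
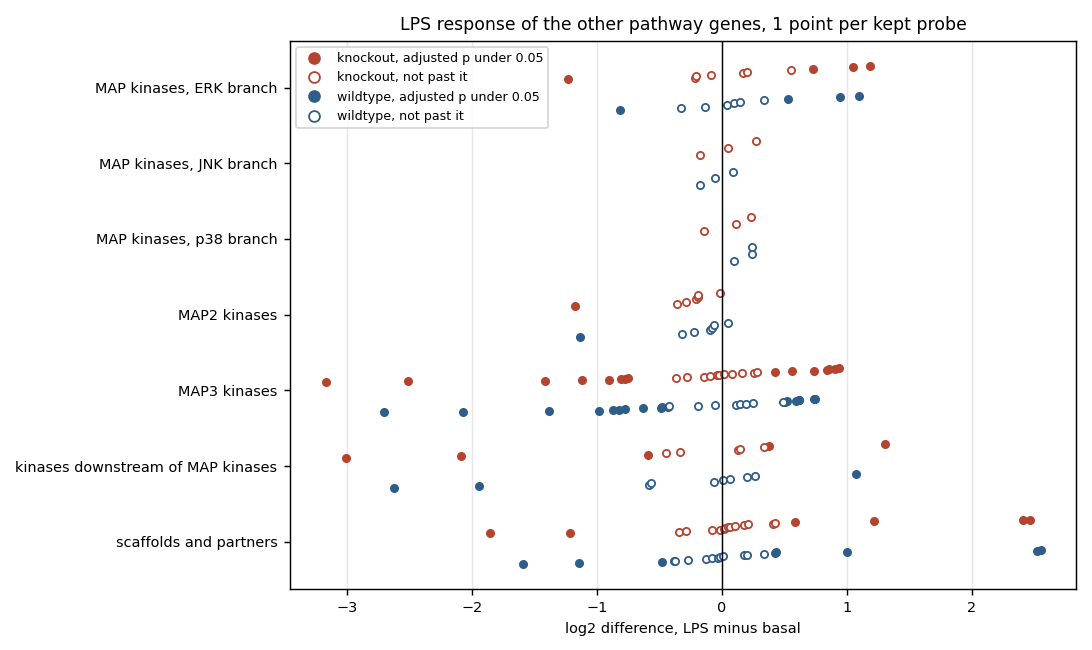
LPS minus basal log2 difference (horizontal axis) of the 78 probes of the other pathway genes by role (rows), in knockout (red, upper) and wildtype (blue, lower) cells; filled points passed an adjusted p of 0.05. The Nfkb1 probes of the scaffold row lie furthest right, between 2.41 and 2.55, and Map3k4 and Rps6ka1 furthest left.

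Between genotypes under LPS, 5 of the 78 probes were called higher and 6 lower in the knockout, or 6.41% and 7.69%, beside 6.65% and 4.83% of all probes tested. Map3k1 was higher on both its called probes, by 0.44 ± 0.08 and 0.36 ± 0.08, Map3k14, the kinase NIK of the alternative NF-kappaB pathway, by 0.43 ± 0.10, and Rps6ka2 by 0.41 ± 0.08 (limma adjusted p = 0.018, 0.042, 0.044 and 0.024). Rps6ka1 was lower by -0.64 ± 0.07, Map3k4 by -0.62 ± 0.07, Map3k5, which encodes ASK1, by -0.50 ± 0.07, and Mapk13, the p38 delta gene beside Mapk14, by -0.34 ± 0.07 (adjusted p = 0.0026, 0.0035, 0.0070 and 0.034). The probes of Map3k5 disagreed: the value given is that of A_52_P656714, and the other probe, A_55_P2079967, stood at 0.27 ± 0.07 and did not pass (adjusted p = 0.062). The other Map3k14 probe, A_55_P1988664, stood at 0.32 ± 0.10 under LPS and did not pass (limma adjusted p = 0.079). In basal cells 1 probe was called lower and none higher. It was 1 of the 2 probes of Mapk8ip3, which encodes the JNK scaffold JIP3, at -0.76 ± 0.15 (adjusted p = 0.041). None of the 78 probes was called in the difference of the knockout effect between LPS and basal arrays, and their median there was 0.03.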

How the data were processed

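The deposited scanner files give, per the file headers, each spot's foreground and background intensity in both channels from Agilent Feature Extraction 11.5.1.1 (the submitters' processing notes name 9.3.2.1). The authors' deposited log2 values are ratios of knockout to wildtype processed signals plus a small constant per array, which the sources used here do not explain. Median intensities were corrected by normexp (offset 50), normalised by loess within arrays and Aquantile between arrays, and averaged over spots of a probe. Of 39429 probes, 28632 were kept, those well above background in at least 1 channel on 2 or more of the 4 arrays. SystematicName accessions matched a RefSeq symbol for 27508 probes. Tests used limma 3.58.1 in R 4.3.3, with Benjamini-Hochberg adjustment over all kept probes. Knockout against wildtype was tested on ratios, 1 fit for all arrays, and LPS against basal within each channel. Simulated log2 ratios were used to test the fit for the difference of the knockout effect between LPS and basal arrays only. The LPS tests within each channel were not tested in that way. Map2k1 and the other members, the pathway and marker lists and the tests were chosen with earlier results of these data known. Other genes were named by rule: Cdk5r1, Il10, up to 4 pathway probes per comparison and direction with the largest called difference, and the 3 probes most like the most responsive member. Genes of small counts outside that rule (Map2k5, Mapk7) were named after their values were seen.

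Alternatives were Agilent's processed signals, median centring, 75th percentile scaling, 2 other filters, 1 probe per gene, the replicate number as a block, a separate-channel fit, the authors' table and each array left out. Same-numbered arrays did not deviate together. Array number limits the precision.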

Additional observations from a re-analysis of the deposited data

Results flagged for a closer look

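None of the 9 MAP kinase genes met a criterion for a closer look. The genes named beside them did, each because the knockout effect under LPS differed from that in basal cells by a direct test in limma. For Il10 that difference was 1.90 (adjusted p = 0.0011), from knockout to wildtype differences of 1.91 under LPS and 0.01 in basal cells, where Il10 was not well above background. For Cdk5r1 it was -1.94 with probe A_55_P2156583 and -1.53 with probe A_55_P2173183 (adjusted p = 0.0032 and 0.0024). With Agilent's processed signals these 3 differences were 2.17, -2.11 and -1.95 and did not pass (adjusted p = 0.086, 0.095 and 0.078). The Cdk5r1 differences also did not pass without LPS replicate 2, at -2.07 and -1.51 (adjusted p = 0.055 and 0.071).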

How the results depend on the processing

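Of 745 recomputed values for the 65 member results, 637 kept their direction and their side of the threshold, 48 changed sign with no call in either setting, 35 lost the call, 22 gained it and 3 changed sign with a call, the Mapk8 values under 75th percentile scaling (0.36 for A_52_P558382 and 0.44 for A_55_P2020410 in the knockout, 0.42 for A_55_P2020410 in the wildtype). The cause was not tested. Many of the 745 values could not change direction, because their setting reuses the same levels. These settings are the filters, 1 probe per gene, the replicate block and the separate-channel fit. For a ratio within 1 condition, leaving out an array of the other condition also keeps the difference. The authors' table holds the processed signals plus a constant per array, so it largely repeats that setting. For LPS in the knockout, 12064 probes were called (5520 higher, 6544 lower), 13002 higher and 4978 lower under that scaling, and 4941 (without basal replicate 2; 5713 without basal replicate 1) to 11896 with an array left out. In the wildtype 11991 were called (5285 higher, 6706 lower), 18019 under that scaling (13023 higher, 4996 lower) and 6284 (without basal replicate 2; 6665 without basal replicate 1) to 10858 with an array left out. Knockout against wildtype under LPS gave 3286 calls, 1963 with processed signals, 6371 with median centring (5360 higher, 1011 lower), 5966 with scaling, 1953 with the authors' table and 503 (without LPS replicate 2; 656 without LPS replicate 1) to 3917 with an array left out. In basal cells 1292 became 827, 5022 (4285 higher, 737 lower), 4691 (1881 higher, 2810 lower) and 823 in the same order, and 874 to 967 with an array left out. The difference of knockout effects gave 115, then 11, 271, 320 and 12, with 55 under the stricter filter, 65 with the replicate block and 11 (without LPS replicate 2), 50 (without LPS replicate 1) and up to 329 (without basal replicate 1) with an array left out. Among member probes, calls under LPS between genotypes went to 1 with processed signals and with the authors' table and 1 to 4 with an array left out, against 3. The 1 basal call, of Mapk3, was lost with median centring and with scaling. In their place 2 other probes were called, Map3k8 higher and A_55_P1973299 of Mapk8 lower. Basal member calls went to 0 with processed signals, the stricter filter, 1 probe per gene, the replicate block or the authors' table. The difference of knockout effects gained 1 with median centring, scaling or no filter, against 0. The replicate block gave 9876, 9805, 2342 and 992 calls in the other comparisons. Same-numbered arrays had correlations of deviations of -0.17, -0.09 and -0.19, so their deviations did not go together. This cannot show whether they share animals or cultures, which the labels do not name. With 2 arrays per group and dyes never swapped, small ratios and the dim Mapk8 and Map2k6 probes are the least certain.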

Other observations

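Mapk9, which encodes JNK2, a paralogue of the Mapk8 product, was examined after its values were seen. It had 2 probes with mean levels of 8.43 and 10.68 in LPS-treated knockout cells, and neither was called in any comparison.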
